A study of Mus musculus with 9 samples.

Results

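The respiratory chain subunit genes described here are the genes on the array whose symbols begin with Ndufa, Ndufb, Ndufc, Ndufs, Ndufv, Uqcr, Sdha to Sdhd, Cox4 to Cox8 or Atp5, each represented by the brightest of the probe sets that name that gene alone. The rule found 94 members among the 18193 genes with such a probe set. By their known place, 42 belong to complex I, 8 to complex II, 8 to complex III, 19 to complex IV and 17 to complex V. The symbols also take in genes that are no standard subunit. Beside 73 standard subunits (21 core and 52 accessory) the rule caught 8 tissue-restricted isoforms, 12 assembly factors (Ndufaf1 to Ndufaf8 and Sdhaf1 to Sdhaf4) and the supercomplex factor Cox7a2l. Several other subunits, among them Ndufs6, Ndufa11 and Cox7b, were not analysed here, and neither were the mitochondrially encoded subunits.

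The respiratory chain sits in the inner mitochondrial membrane. Complex I (NADH dehydrogenase) and complex II (succinate dehydrogenase) pass electrons to ubiquinone, complex III passes them on to cytochrome c, complex IV (cytochrome c oxidase) gives them to oxygen, and complex V (ATP synthase) uses the proton gradient that complexes I, III and IV build. Retinal photoreceptors are known for a very high demand for this pathway, whereas pluripotent stem cells are known for heavy use of glycolysis.

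Transcripts were measured on 9 Affymetrix arrays that fall into 3 groups of 3. Both groups of retinal progenitor cells from embryonic stem cells (ESC-RPCs) came, as the labels give it, from 46C, a single mouse ES cell line made by gene targeting in E14Tg2a.IV. Embryoid bodies were grown for 3 days with SB431542, which blocks the receptors that carry Nodal signals, and were then plated on Matrigel in a chemically defined medium free of retinoic acid; Sox1-positive cells (35.8%) were sorted on day 7. The sorted cells of both groups were kept in N2 medium with DAPT at 10 µM, which blocks Notch cleavage, and bFGF at 20 ng/ml. The treated group (DKK1-treated ESC-RPCs) also had recombinant DKK1, a secreted inhibitor of Wnt signalling, at 1 ng/ml for 1 day; the control group (untreated ESC-RPCs) had none. The third group, primary RPCs, was cultured from dissociated neural retina of C57 mice at postnatal day 1 and is labelled untreated; the protocol text, which every record shares, ties the sort and the agents to ESC-RPCs alone. The labels call the 3 arrays of a group biological replicates and do not say how many cultures or mice stood behind each. The strain, the source of the cells and their culture all differ between ESC-RPCs and primary RPCs, so their effects cannot be told apart.

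The levels of cell type markers differed widely between the groups. Of 7 retinal progenitor markers, 5 (Pax6, Six3, Six6, Rax and Lhx2) were called lower and 2 (Sox2 and Fgf15) higher in ESC-RPCs than in primary RPCs. Their summed intensity was 17467 to 18417 on the ESC-RPC arrays and 35447 to 42148 on the primary arrays; Rax and Six6, which define the early eye field, averaged 28.2 and 46.0 in untreated ESC-RPCs, near or below the 40th percentile of those arrays (45.6 to 47.7), against 3939 and 4386 in primary RPCs. The sum of 8 pluripotency markers was 17653 to 22127 on the ESC-RPC arrays and 519 to 848 on the primary arrays, that of 8 mesenchyme markers 18032 to 22452 against 598 to 867, and that of 8 photoreceptor precursor markers 6419 to 7835 against 47140 to 66168. Ganglion cell markers summed to 6987 to 9619 against 19522 to 25660, endothelial markers to 263 to 342 against 5754 to 7658, microglial markers to 115 to 223 against 926 to 1618, and the red blood cell markers stayed between 3.92 and 19.1 everywhere. Of the endothelial sums on primary arrays 1, 2 and 3, Kdr alone gave 5689, 5186 and 7316. Cldn5 gave 209, 379 and 220 there. Astrocyte markers summed to 16119 to 18965 on the ESC-RPC arrays and 593 to 687 on the primary arrays, and neural progenitor markers to 30121 to 32622 against 18957 to 21220. The sums of amacrine and horizontal cell markers overlapped, at 5590 to 9028 against 6849 to 8189. In such bulk samples, fewer cells of a type and less RNA per cell cannot be told apart. The part of cell makeup in the differences below was not tested. Primary replicate 2 stood apart. Its 11 cardiac and skeletal muscle markers summed to 9079, of which Actc1 alone gave 7945, against 2011 and 1209 in primary replicates 1 and 3 and 801 to 1001 on the ESC-RPC arrays; its 40th percentile was 52.9 against 44.7 and 44.9. The 3-prime to 5-prime intensity ratio of Actb, a sign of RNA integrity, was 1.35 ± 0.02, 1.34 ± 0.03 and 1.24 ± 0.02 (SD, n = 3) in DKK1-treated, untreated and primary cells. That of Gapdh was 0.78 ± 0.02, 0.76 ± 0.02 and 0.74 ± 0.02 (SD, n = 3) in the same order.

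Of the 94 members, 88 lay above the 40th percentile of their own array on all 9 arrays. The filter asked for 3 such arrays, and 92 members passed it. Ndufb4, Cox4i2, Cox6a2 and Ndufa4l2 passed on 4, 4, 5 and 3 arrays, and Cox7b2 and Cox8b lay below on every array and were not tested. The mean intensity of a standard subunit probe set ran from 38.9 to 17872 in primary RPCs with a median of 7135, and from 42.9 to 19657 with a median of 7644 in untreated ESC-RPCs. Of the 73 standard subunits, 70 averaged over 1000 in each of the 3 groups. The exceptions were Ndufb4, Ndufb1 and Cox7c, whose chosen probe sets were dim. Intensities of different probe sets are not on 1 scale, so each gene is compared only with itself across groups. Of the 94 chosen probe sets, 13 have the suffix _s_at and 5 the suffix _x_at, by which Affymetrix marks probes that may match more than 1 transcript; several chain genes are known to have processed pseudogenes.

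Many nuclear genes of the chain are known to carry sites for NRF1 and for the ETS-family factor GABP close to their start. The promoters of 3 members that differed between untreated ESC-RPCs and primary RPCs, 1 in complex I, 1 in complex IV and 1 in complex III, are printed here. All 3 hold a motif, whereas 41 of the 78 members with a listed promoter hold neither. Beside them stands the muscle isoform Cox7a1, which holds neither motif and was also called higher in untreated ESC-RPCs. Each line gives the 120 bases before the RefSeq start, 5′ to 3′ on the gene's strand, with the matches in capitals. The positions on GRCm38.p6 are chr4:123718187-123718306 on the minus strand for Ndufs5, chr5:115348959-115349078 on the minus strand for Cox6a1, chr4:116075071-116075190 on the minus strand for Uqcrh and chr7:30184051-30184170 on the plus strand for Cox7a1.
Ndufs5: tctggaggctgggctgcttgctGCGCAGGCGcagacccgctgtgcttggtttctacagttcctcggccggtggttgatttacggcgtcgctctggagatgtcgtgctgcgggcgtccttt
Cox6a1: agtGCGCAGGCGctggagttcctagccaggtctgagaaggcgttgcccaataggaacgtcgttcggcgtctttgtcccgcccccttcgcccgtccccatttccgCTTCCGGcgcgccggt
Uqcrh: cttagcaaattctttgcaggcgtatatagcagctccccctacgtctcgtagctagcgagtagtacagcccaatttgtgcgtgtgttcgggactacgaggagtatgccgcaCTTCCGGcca
Cox7a1: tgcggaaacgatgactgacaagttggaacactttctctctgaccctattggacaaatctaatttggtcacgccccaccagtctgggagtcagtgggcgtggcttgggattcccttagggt

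The letters sought were GCGCANGCG for the NRF1 core and CCGGAAG for the ETS core, on both strands, in windows of 300 bases (250 before to 50 after the start). Both were chosen after the expression values had been seen. A promoter was listed for 78 of the 94 members. The NRF1 core was in 22 of them (28.2%), against 14.6% of the 10716 fitted genes with a promoter and 7.03% of all 27025 genes listed. The ETS core was also in 22 members (28.2%), against 18.7% of fitted genes and 9.93% of all genes. One or both were in 37 members (47.4%), against 30.0% and 15.5%. YY1 letters (AAGATGGC) were in 10 members (12.8%), against 4.96% and 3.19%, and the cAMP response element TGACGTCA was in 3 (3.85%), against 3.54% and 2.03%. Of the 4 tissue-restricted isoforms listed, 0 held the NRF1 or the ETS core. Matches on the 2 strands can overlap: the NRF1 core can lie over its own reverse complement, as it does once upstream of the printed part of Cox6a1. A match is a run of letters and not evidence of binding. Of the 37 with the NRF1 or ETS core, 12 were higher and 6 lower in untreated ESC-RPCs than in primary RPCs, and 19 were not called. Of the 41 with neither, 13 were higher, 6 lower and 20 not called, and 2 were not tested. The share called was 48.6% of the 37, against 53.0% of all fitted genes. It was 46.3% of the 41, a share that counts the 2 untested members as not called. The 2 sets were not tested against each other.

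The comparison of untreated ESC-RPCs with primary RPCs asks how far progenitors made in culture differ from those of the newborn retina. Most chain transcripts differed little: a few accessory subunits of complex I (Ndufs5, Ndufb1, Ndufa5) and Atp5md of complex V were lower in untreated ESC-RPCs, and Cox7a2l, Uqcr10, Uqcrh, Cox4i1 and the complex V subunits Atp5d, Atp5c1 and Atp5h were higher. The median log2 difference (untreated ESC-RPC minus primary RPC) over the 92 tested members was 0.065, against -0.0068 over all 13320 genes fitted, and the median size of a member's difference over all 94 was 0.18 on the log2 scale against 0.44 for all genes. Of the 94 members, 7 (7.45%) differed by more than 1 log2 unit, against 22.0% of all genes. A gene was called at an adjusted p below 0.05 in the limma fit of all genes. Of the 92 tested members, 28 were called higher in untreated ESC-RPCs and 14 lower, which is 45.7% in either direction; of all fitted genes 26.1% were called higher, 26.9% lower and 53.0% in either direction. Most members are bright. Among the 59 members with a mean log2 intensity of 12 or more, 44.1% were called with a median size of 0.14, against 58.7% and 0.25 for all 1001 fitted genes that bright. Bright genes at large also tended upward, with 412 called higher and 176 lower and a median difference of 0.12. Of the 59 bright members, 23 were called higher and 3 lower, with a median difference of 0.10.

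The split between higher and lower depended on primary replicate 2 and on the scaling. Without that array the fit called 24 members higher and 25 lower, and the median was 0.016; the standard subunits alone went from 23 higher and 7 lower to 19 and 17. Without untreated replicate 2 it called 18 higher and 10 lower. After quantile normalisation 19 were higher and 22 lower, with a median of -0.029. Of the 42 called members, 23 were called in all 16 alternative settings, 15 of them higher and 8 lower. The members described next also include calls that were lost in some settings and members that were not called. Among such lost calls, that of Ndufc1 held in 15 of the 16 settings. Those of Ndufb7, Ndufaf6 and Sdhaf1 held in 14, and those of Atp5j and Sdhaf2 in 13.

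**Figure D1:**
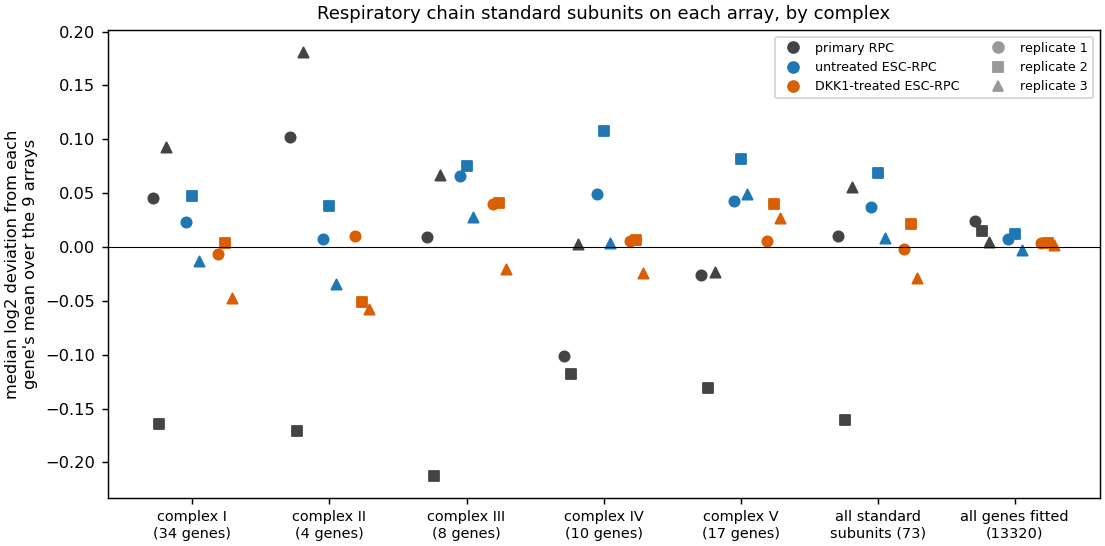
Each point is 1 array: the y axis gives the median, over the standard subunits of a complex, of the log2 deviation from each gene's own mean over the 9 arrays; colours mark the groups and shapes the replicate number. Primary replicate 2 lies lowest in every complex, at -0.160 over all 73 standard subunits, while the other primary arrays lie at 0.010 and 0.056 and the ESC-RPC arrays between -0.028 and 0.069.

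The plot of complex medians by array shows how narrow these differences were. Over all 73 standard subunits the median deviation was -0.160 in primary replicate 2, 0.010 in replicate 1 and 0.056 in replicate 3, whereas that of all fitted genes was 0.015, 0.024 and 0.0049 on the same arrays. Bright genes were not counted by array, so whether the low value is particular to chain genes cannot be told. The median log2 intensity over all probe sets was 6.60 on primary replicate 2, against 6.39 and 6.40 on replicates 1 and 3. Of the 73 standard subunits, 52 had their lowest primary value in replicate 2, the array with the high muscle marker sum. The part of that sum in the low values was not tested. The untreated ESC-RPC arrays lay at 0.038, 0.069 and 0.0081 and the DKK1-treated arrays at -0.0021, 0.021 and -0.028. In complex II all 6 ESC-RPC arrays lay between primary replicate 2 and the other primary arrays; in complex V all 6 ESC-RPC arrays lay above all 3 primary arrays.

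Complex I had as many members higher as lower. Of its 42 members, 9 were called higher and 9 lower in untreated ESC-RPCs, with a median log2 difference of 0.0051. That is 42.9% called, against 53.0% of all fitted genes. Among the 34 standard subunits the split was 8 and 5, and without primary replicate 2 it was 7 and 11.

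Ndufs5, an accessory subunit on the intermembrane side of complex I, was among the lowest relative to primary RPCs. Its intensity was 6102, 5116 and 6331 on the primary arrays, 2784, 2855 and 2655 on the untreated arrays and 2756, 2682 and 2451 on the DKK1-treated arrays. Every ESC-RPC array was under every primary array, and untreated cells were 2.11-fold lower (log2 difference -1.08 ± 0.09 SE, adjusted p = 5.3e-06). Ndufb1, another accessory subunit, had 409, 411 and 373 on the primary arrays, 223, 166 and 176 on the untreated arrays and 121, 141 and 160.4 on the DKK1-treated arrays. The 3 groups did not overlap, and the difference between untreated and primary cells was -1.09 ± 0.16 SE, adjusted p = 3.0e-04. Its only probe set was dim. Ndufa5, which sits in the arm of complex I that reaches into the matrix, had 5406, 4903 and 5691 in primary cells against 3468, 3449 and 3173 in untreated ESC-RPCs (-0.66 ± 0.08 SE, adjusted p = 6.4e-05); its second probe set gave the same direction, at -0.76.

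The rises in complex I were smaller. Ndufa6, an accessory subunit of the LYR protein family, was 6315, 6392 and 5963 in untreated ESC-RPCs and 4748, 3262 and 4289 in primary RPCs, where replicate 2 was lowest; the groups did not overlap (0.62 ± 0.12 SE, adjusted p = 0.0012). Ndufa13, also known as GRIM-19, was 8917, 9161 and 9168 against 7190, 5736 and 7716 (0.41 ± 0.09 SE, adjusted p = 0.0039), again with primary replicate 2 lowest. Both calls held without that array. The other called accessory subunits were Ndufa7 (0.33), Ndufc1 (0.29), Ndufab1, the mitochondrial acyl carrier protein (0.21), Ndufb7 (0.21) and, downward, Ndufb8 (-0.40).

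The core subunits of complex I, which carry its flavin and iron-sulphur centres, were called in both directions. Ndufv1, which holds the flavin and binds NADH, was 4213, 4121 and 4099 in untreated ESC-RPCs and 5573, 4424 and 5250 in primary RPCs (-0.29 ± 0.08 SE, adjusted p = 0.015); the call was lost without primary replicate 1. Ndufs1, which carries several iron-sulphur clusters, was 2730, 2654 and 2825 against 2459, 2429 and 2324 (0.19 ± 0.07 SE, adjusted p = 0.039), a call that held in 7 of 16 alternative settings. Ndufs8, an iron-sulphur subunit near the quinone site, was 6152, 6866 and 6027 against 5858, 3901 and 5285, with primary replicate 2 far below the others (0.36 ± 0.13 SE, adjusted p = 0.038). Without that array Ndufs8 was not called (0.19). Of its other 5 probe sets, 4 lay between 0.18 and 0.29 and a dim one gave -0.045. Ndufs3, Ndufs7 and Ndufv2 did not pass the test, at -0.15 ± 0.08, -0.04 ± 0.10 and 0.10 ± 0.06 (SE); Ndufs3 and Ndufs7 were called lower without primary replicate 2.

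**Figure D2:**
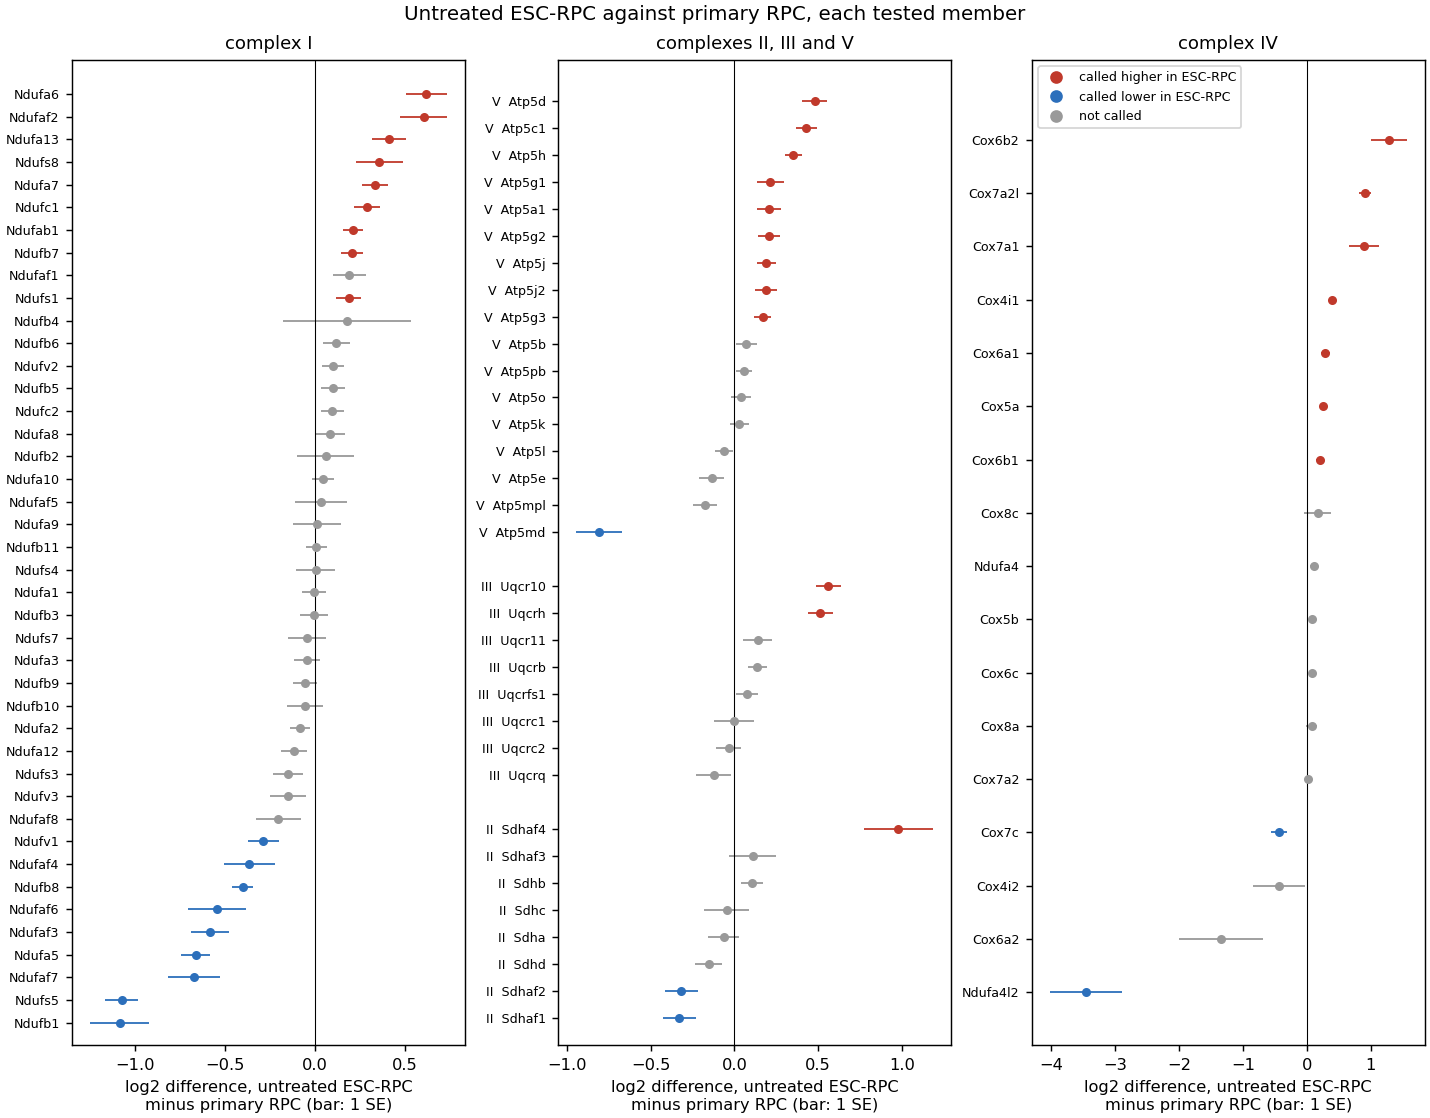
Each point is 1 of the 92 tested members: the x axis gives the log2 difference, untreated ESC-RPC minus primary RPC, with a bar of 1 SE (n = 3 arrays a group), and the complex IV panel has a wider axis. Most members lie within 0.5 of 0, with Ndufb1 and Ndufs5 at the low end of complex I, Atp5md alone at the low end of complex V and Ndufa4l2 farthest left in complex IV, where its ESC-RPC values are at background and the plotted size is no measured fold.

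The succinate dehydrogenase subunits of complex II, which also serve the citric acid cycle, did not differ by the test. Sdha, the flavoprotein, was 4065 ± 73.1 in untreated ESC-RPCs and 4276 ± 572 in primary RPCs (SD, n = 3). Sdhb, the iron-sulphur subunit, was 7615 ± 171 against 7098 ± 551, and the membrane anchors Sdhc and Sdhd were 2312 ± 146 against 2411 ± 433 and 3187 ± 118 against 3547 ± 154. The log2 differences were -0.06 ± 0.09, 0.10 ± 0.07, -0.05 ± 0.13 and -0.15 ± 0.08 (SE), and none passed. Without primary replicate 2, Sdha was called lower, at -0.18. The probe sets of Sdha disagree: another gave 0.47, with 1997 in untreated ESC-RPCs and 1451 in primary RPCs, and a dim one gave -1.33.

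In complex III 2 of 8 subunits were called higher and none lower (25.0%, against 53.0% of all fitted genes called). Without primary replicate 2 the counts were 2 and 2. Uqcrh, the hinge protein that helps cytochrome c to dock, was 9208, 9520 and 8911 in untreated ESC-RPCs and 6021, 6109 and 7297 in primary RPCs (0.51 ± 0.08 SE, adjusted p = 2.5e-04). Uqcr10, a small subunit, was 5234, 5336 and 4832 against 3592, 3182 and 3677 (0.56 ± 0.08 SE, adjusted p = 1.4e-04). Neither gene's groups overlapped, and further probe sets of both gave the same direction. The iron-sulphur protein Uqcrfs1 and the core proteins Uqcrc1 and Uqcrc2 were not called, at 0.08 ± 0.07, -0.00 ± 0.12 and -0.03 ± 0.07 (SE). The median over the 8 was 0.11 and fell to 0.011 after quantile normalisation.

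Of the 10 standard subunits of complex IV, 4 were called higher and 1 lower, and 9 had a difference above 0. That is 50% called, against 53.0% of all fitted genes and 58.7% of the bright ones. Bright genes at large also leaned upward, with 638 of 1001 above 0. The direction rested on the scaling: after quantile normalisation 1 was higher and 2 lower, with a median of -0.019 in place of 0.098. Cox4i1, the ubiquitous form of subunit 4, was 18373, 18842 and 17470 in untreated ESC-RPCs, 17388, 17843 and 17009 in DKK1-treated ESC-RPCs and 13271, 14382 and 13928 in primary RPCs. No ESC-RPC array overlapped the primary arrays (0.40 ± 0.05 SE, adjusted p = 9.7e-05). Cox6a1, whose promoter is printed above, was 17441, 20973 and 18059 against 15057, 15629 and 15500 (0.29 ± 0.07 SE, adjusted p = 0.0056). Cox5a was higher by 0.25 and Cox6b1 by 0.20 on the log2 scale. After quantile normalisation the calls for Cox6a1 (0.04) and Cox5a (0.03) were lost and Cox6b1 turned to -0.03. Cox5b, Cox6c, Cox7a2, Cox8a and Ndufa4, which is now placed in this complex, differed by 0.09, 0.09, 0.02, 0.07 and 0.11 and were not called. Cox7c was the 1 standard subunit called lower, with 376, 354 and 292 against 450.2, 450.1 and 476 (-0.44 ± 0.12 SE, adjusted p = 0.013); its probe set was dim and the call was lost without untreated replicate 3 (-0.33).

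Cox7a2l, which joins complexes III and IV into supercomplexes, was higher in ESC-RPCs. Its intensity was 6963, 7595 and 6888 in untreated ESC-RPCs, 6779, 7412 and 6968 in DKK1-treated ESC-RPCs and 3229, 4234 and 4024 in primary RPCs. The lowest ESC-RPC array was well above the highest primary array, and untreated cells were 1.88-fold higher (log2 difference 0.91 ± 0.10 SE, adjusted p = 2.8e-05). Its other 2 probe sets gave 0.79 and 0.77.

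Complex V had 9 of its 17 members called higher and 1 lower, with a median of 0.17. The share called, 58.8%, was near the 53.0% of all fitted genes and the 58.7% of the bright ones. Without primary replicate 2 the counts were 6 and 2, and after quantile normalisation 4 and 5 with a median of -0.034. Of the central stalk, which turns inside the F1 head, the gamma and delta subunits were called higher, and the epsilon subunit Atp5e was not called (-0.14 ± 0.07, SE). Atp5d (delta) was 8116, 8530 and 7759 in untreated ESC-RPCs and 5989, 5245 and 6291 in primary RPCs (0.48 ± 0.07 SE, adjusted p = 3.5e-04), and Atp5c1 (gamma) was 13979, 15222 and 13393 against 10820, 9877 and 10936 (0.43 ± 0.06 SE, adjusted p = 2.2e-04). Atp5h, subunit d of the peripheral stalk, was 16839, 17651 and 17009 against 12838, 13414 and 14109 (0.35 ± 0.05 SE, adjusted p = 2.1e-04). For these 3 called genes the groups did not overlap. Of the other peripheral stalk subunits, Atp5j was called higher (0.19), and Atp5o (0.04) and Atp5pb (0.06) were not called. The catalytic pair of the F1 head differed less: Atp5b (beta) differed by 0.07 ± 0.06 (SE) and was not called, and Atp5a1 (alpha) was called at 0.21 ± 0.07 (SE) but in 7 of the 16 alternative settings only. The 3 genes Atp5g1, Atp5g2 and Atp5g3, which encode the same ring subunit c with different import signals, were each called higher, by 0.22, 0.21 and 0.17. The calls held in 6, 11 and 12 of the 16 settings; that of Atp5g1 was lost without primary replicate 2, and Atp5g3 turned to -0.03 after quantile normalisation.

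Atp5md, a small membrane subunit tied to the pairing of ATP synthases, went the other way. It was 9431, 9435 and 10022 on the primary arrays, 4251, 6542 and 5984 on the untreated arrays and 6745, 5722 and 6752 on the DKK1-treated arrays. Every ESC-RPC array lay below every primary array, with wide spread among the untreated arrays (-0.81 ± 0.14 SE, adjusted p = 6.7e-04). Atp5mpl, another small membrane subunit, also had no overlap between untreated and primary arrays but was not called (-0.17 ± 0.07 SE, adjusted p = 0.055); it was called lower without primary replicate 1, without primary replicate 2 and after quantile normalisation.

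Assembly factors help to build the complexes and are not part of them. Of the 12 with Nduf or Sdh symbols, 2 were called higher and 6 lower (66.7%, against 53.0% of all fitted genes). The median log2 difference was -0.26 and lay between -0.32 and -0.22 under the other scalings and without primary replicate 2. Ndufaf7, a methyltransferase needed for complex I assembly, was 505, 515 and 477 in untreated ESC-RPCs and 1014, 661 and 752 in primary RPCs (-0.67 ± 0.15 SE, adjusted p = 0.0030). Ndufaf3, Ndufaf6 and Ndufaf4 were called lower, at -0.58, -0.55 and -0.37; the call for Ndufaf4, whose arrays overlapped, held in 6 of 16 settings. Ndufaf2, a paralogue of the subunit Ndufa12, was 1143, 1039 and 1211 against 895, 703 and 650.5 (0.60 ± 0.13 SE, adjusted p = 0.0027). Ndufaf1, Ndufaf5 and Ndufaf8 were not called (0.19, 0.03 and -0.20). For complex II, Sdhaf4, which protects the flavinated Sdha, was 2800, 2986 and 2761 against 1787, 941 and 1791, with primary replicate 2 lowest (0.98 ± 0.21 SE, adjusted p = 0.0026). Sdhaf1 and Sdhaf2, which serve iron-sulphur and flavin insertion, were called lower, at -0.33 and -0.32, and Sdhaf3 was not called (0.11).

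Isoforms known from particular tissues showed the widest range. Ndufa4l2, a paralogue of Ndufa4 known to be induced by hypoxia, was 167, 268 and 194 on the primary arrays, 45.0, 16.3 and 8.90 on the untreated arrays and 27.5, 13.0 and 14.9 on the DKK1-treated arrays. All 6 ESC-RPC values were below the 40th percentile of their array, so the size is a bound: measured against that percentile, Ndufa4l2 was at least 4.40-fold lower in untreated ESC-RPCs. It passed the filter on dim probe sets through the primary arrays alone, so it had to differ, and its call carries no further weight. Ndufa4l2 is also known from pericytes. Of 9 mural cell markers, a list added after the values had been seen, Rgs5 was 240.4, 1014 and 408 on the primary arrays and 18.0 to 39.9 on the ESC-RPC arrays, so that primary replicate 2 was highest and replicate 1 lowest for both genes; Vtn, Notch3, Pdgfrb and Kcnj8 were higher in ESC-RPCs. The sum of the 9 was 601 to 1662 on the primary arrays and 3402 to 5090 on the ESC-RPC arrays, and Abcc9, Higd1b, Cspg4 and Anpep averaged under 50 in untreated and primary cells. The part of mural cells in the difference was not tested.

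**Figure D3:**
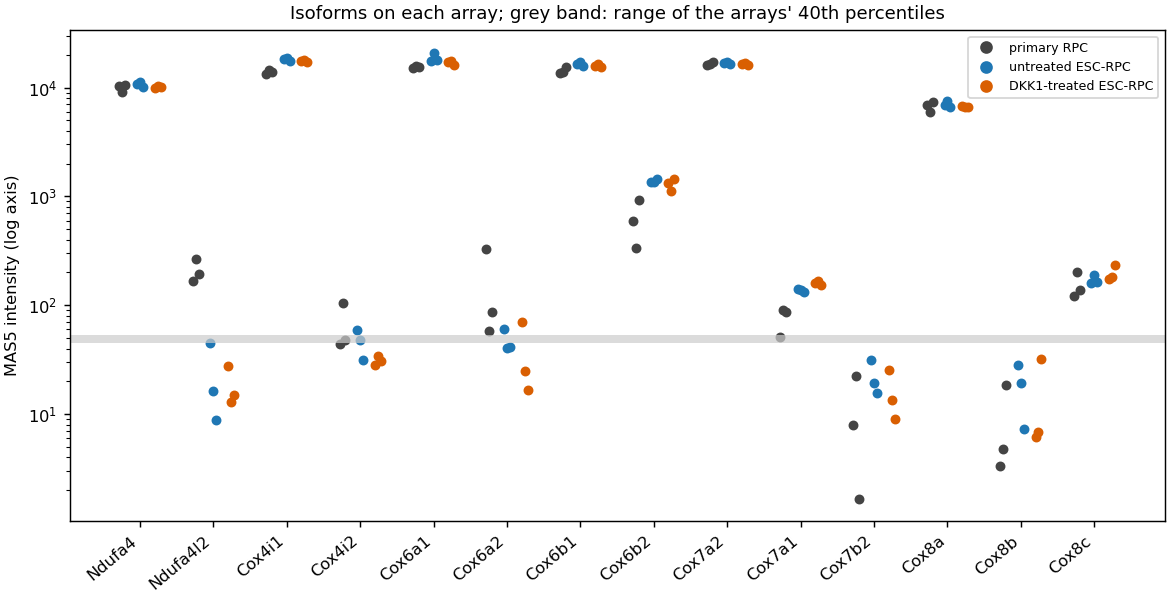
MAS5 intensity on a log axis for the isoform pairs of complex IV, with 1 point per array and the grey band spanning the 40th percentiles of the 9 arrays; levels of different genes are not comparable. Ndufa4l2 lies above the band on the primary arrays alone, Cox6b2 and Cox7a1 lie higher on the ESC-RPC arrays, and Cox7b2 and Cox8b lie below the band on all arrays.

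Cox6b2, the testis form of subunit 6b, was 1363, 1349 and 1438 in untreated ESC-RPCs, 1330, 1124 and 1441 in DKK1-treated ESC-RPCs and 589, 337 and 931 in primary RPCs (1.28 ± 0.28 SE, adjusted p = 0.0033). The groups did not overlap, and primary replicate 2 was lowest. Cox7a1, the heart and muscle form of subunit 7a, was 139.9, 139 and 131 in untreated and 161, 168 and 152 in DKK1-treated ESC-RPCs against 51.1, 90.5 and 86.1 in primary RPCs (0.89 ± 0.23 SE, adjusted p = 0.0075). Both calls held in all 16 settings. Cox7a1 was lower on all 3 primary arrays than on any ESC-RPC array, the array with the high muscle marker sum included. Its probe set was dim, and the 51.1 of primary replicate 1 was near the 40th percentile of that array (44.7). Cox6a2, the muscle form of subunit 6a, was 329, 58.3 and 87.0 on the primary arrays, 60.9, 40.4 and 41.4 on the untreated arrays and 70.4, 25.1 and 16.5 on the DKK1-treated arrays; primary replicate 1 was far above the rest, the untreated and primary arrays overlapped, and the difference was not called (-1.34 ± 0.66 SE, adjusted p = 0.11). The muscle marker sum was 2011 on that array and 9079 on replicate 2, where Actc1 alone gave 7945. The part of muscle cells in the values of Cox7a1 and Cox6a2 was not tested. Cox4i2, the lung form of subunit 4, lay near or below the percentile on most arrays, with 44.4, 104 and 48.1 in primary and 59.8, 48.1 and 31.1 in untreated cells (-0.44 ± 0.41 SE, adjusted p = 0.39). Cox8c, a testis form, was not called (0.17 ± 0.21 SE, adjusted p = 0.53), and Cox7b2 and Cox8b were not above the percentile on any array.

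DKK1-treated ESC-RPCs were set against the same primary arrays, so the 2 comparisons share a group and are given side by side without a measure of their likeness. Of the 92 tested members, 18 were called higher and 16 lower than in primary RPCs (37.0%), against 26.0% of all fitted genes higher, 26.8% lower and 52.8% in either direction. The median log2 difference was 0.0095, against -0.0077 for all genes. Without primary replicate 2, 17 were higher and 25 lower. By complex, the calls were 5 higher and 10 lower of 42 in complex I, 1 and 2 of 8 in complex II, 2 and 0 of 8 in complex III, 6 and 3 of 17 in complex IV and 4 and 1 of 17 in complex V.

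Of the members named above, Ndufs5 differed by -1.15, Ndufb1 by -1.51, Ndufa5 by -0.64 and Atp5md by -0.59 on the log2 scale between DKK1-treated and primary cells. Cox7a2l was higher by 0.89, Uqcr10 by 0.49, Uqcrh by 0.47, Atp5c1 by 0.36, Cox4i1 by 0.33 and Atp5d by 0.36. All of these were called. Cox6a2 was called lower in DKK1-treated cells (-1.95 ± 0.66 SE, adjusted p = 0.030), although its arrays overlapped and 2 of the 3 DKK1-treated values were at background. That call was lost without primary replicate 1 (-1.21), without DKK1-treated replicate 2 (-1.80) and without DKK1-treated replicate 3 (-1.50). Cox6a1 (0.14 ± 0.07 SE, adjusted p = 0.12) and Ndufs8 (0.17 ± 0.13 SE, adjusted p = 0.29) were not called. Whether the difference from primary cells itself changed with DKK1 is what the next comparison tests.

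DKK1-treated against untreated ESC-RPCs asks what 1 day of Wnt inhibition did to these transcripts. limma called 0 members and 0 of the 13320 genes (0.0%); 1 member, Ndufb1, had an unadjusted p under 0.05, against 308 of all genes. The differences were small. Their median over the tested members was -0.042 on the log2 scale and the lowest and highest over all members were -0.60 and 0.23. Their signs were uneven: 76 of the 94 members (80.9%) were below 0, against 50.5% of all fitted genes and 66.9% of the 1001 bright ones. The 3 arrays of each group did not overlap for 19 of 92 members (20.7%), 16 lower and 3 higher with DKK1, against 12.0% of all fitted genes and 21.0% of the bright ones. The share of members with separated groups was thus near that of bright genes at large. Bright genes also shared the downward shift: their median difference was -0.036, against -0.043 for the 59 bright members. The member median stayed below 0 under the other scalings, at -0.057 with arrays set to 1 median and -0.024 after quantile normalisation.

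The ESC-RPC arrays carry replicate numbers in both groups, and arrays with the same number deviated together over all genes (correlations 0.12, 0.20 and 0.32), so they were also compared as pairs. In pairs 1, 2 and 3 the median member difference, DKK1-treated minus untreated, was -0.036, -0.066 and -0.024, against -0.0018, -0.0056 and 0.0032 for all genes. Of the 94 members, 42 (44.7%) were lower in all 3 pairs and 5 higher in all 3, against 19.0% and 18.4% of all genes. Bright genes, whose median difference between the groups was -0.036, were not counted by pair. With the pair as a block in a fit of these 6 arrays, 1 member was called, Ndufs8 (lower), among 65 genes called in all (0.488%). Ndufs8 was 5534, 5911 and 5277 with DKK1 and 6152, 6866 and 6027 without, with log2 differences of -0.15, -0.22 and -0.19 in the pairs. The blocked estimate was -0.19 ± 0.03 (SE) with an adjusted p of 0.049994, just under the threshold. The labels do not say what the shared number stands for.

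**Figure D4:**
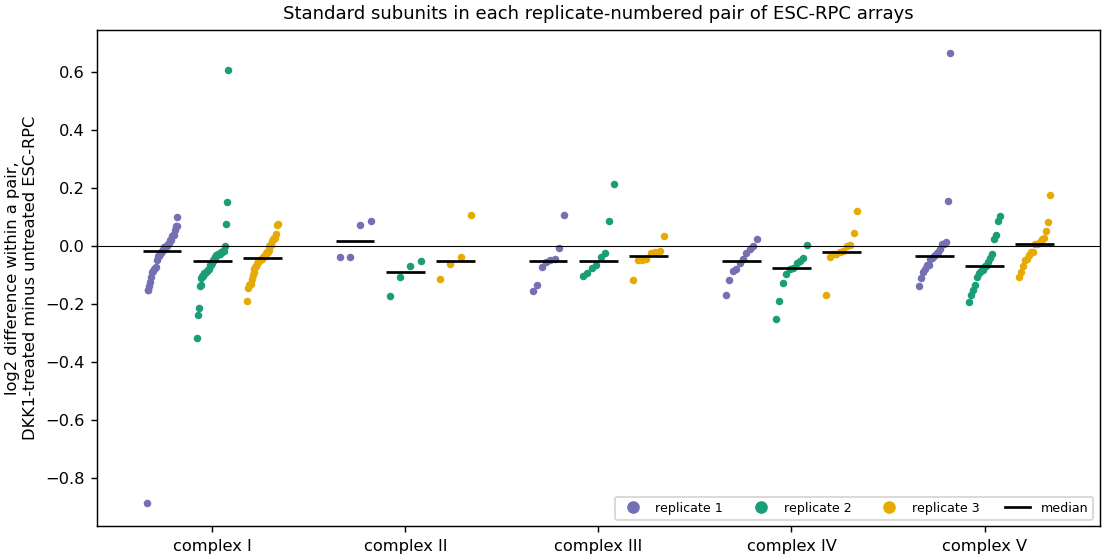
Each point is 1 standard subunit: the y axis gives the log2 difference between the DKK1-treated and the untreated array of the same replicate number, with the complexes along the x axis, the pairs in colours and black lines for medians. Most medians lie just below 0, and a few genes such as Ndufb1 (-0.89 in pair 1) lie far from the rest in a single pair.

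Among the members with the smallest unadjusted p, Ndufb1 was lower in all 3 pairs but by unequal amounts, -0.89 in pair 1 and -0.24 and -0.13 in the others. Cox6a1 differed by -0.15 ± 0.07 (SE), with 17158, 17586 and 16055 against 17441, 20973 and 18059; untreated replicate 2 was the high array. The iron-sulphur protein Uqcrfs1 was 5785, 5983 and 5665 with DKK1 and 6361, 6426 and 6152 without, with no overlap (-0.12 ± 0.07, SE). Atp5d was 7520, 7580 and 7282 against 8116, 8530 and 7759, also with no overlap (-0.12 ± 0.07, SE), and Ndufa10 differed by -0.10 ± 0.06 (SE). Uqcrc2 was the 1 of these that was higher with DKK1, at 8269, 8342 and 8254 against 7674, 7197 and 8060 (0.12 ± 0.07, SE). Adjusted p in limma was over 0.99 for each. All 6 measured core subunits of complex I were below 0 in this comparison, and 5 of them had no overlap; the differences ran from -0.19 for Ndufs8 to -0.05 for Ndufs3. Over all genes 12.0% had no overlap and 50.5% were below 0, and over bright genes 21.0% and 66.9%; these 6 were looked at as a group within a comparison that called 0 members.

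Other mitochondrial genes gave a setting for the untreated against primary comparison. The 76 mitochondrial ribosomal proteins build the ribosome that translates the mitochondrial genome. Of these, 16 were called higher and 18 lower (44.7%, against 53.0% of all fitted genes), with a median log2 difference of -0.017. Without primary replicate 2 the counts were 16 higher and 25 lower. Mrpl45 was 2723 ± 88.5 in untreated ESC-RPCs and 1612 ± 45.9 in primary RPCs (SD, n = 3), a difference of 0.76 ± 0.07 (SE, adjusted p = 1.6e-05 in limma). Of 33 tested genes for assembly of the chain, 7 were higher and 8 lower (45.5%, against the same 53.0%), with a median of -0.084. Cox20, which helps to build the Cox2 subunit into complex IV, was 2515 ± 88.0 against 5637 ± 522 (-1.16 ± 0.08 SE, adjusted p = 1.6e-06), and Bcs1l, which inserts Uqcrfs1 into complex III, was 672 ± 22.1 against 339 ± 97.8 (1.03 ± 0.17 SE, adjusted p = 5.8e-04).

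Genes for carriers and mitochondrial membranes, a list that also holds import and heat shock proteins, were more often called than genes at large. Of the 23 genes on this list, 14 were called higher and 2 lower (median 0.33). That is 69.6%, against 53.0% of all genes and 58.7% of the bright ones. The counts were 13 and 3 after quantile normalisation and 14 and 2 without primary replicate 2. Slc25a5 and Slc25a4, which exchange ADP for ATP across the inner membrane, were 16969 ± 220.1 against 8826 ± 1019 (0.95 ± 0.07 SE, adjusted p = 2.2e-06) and 16895 ± 990.3 against 10906 ± 1025 (0.63 ± 0.07 SE, adjusted p = 4.3e-05). Of 17 citric acid cycle and pyruvate genes, 6 were higher and 1 lower (median 0.17), a share of 41.2% called that is below the 53.0% of all genes, and without primary replicate 2 6 were higher and 5 lower. Pdha1, a subunit of pyruvate dehydrogenase, differed by 1.10 and Cs, citrate synthase, by 0.44, both called.

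Of 23 tested regulators of mitochondrial biogenesis, 1 was called higher and 11 lower, which is 52.2% against 53.0% of all genes in either direction (26.1% higher and 26.9% lower), with a median of -0.21 that lay between -0.31 and -0.16 under the other scalings and without primary replicate 2. The 1 higher gene, Esrrb, is also a pluripotency factor and was 418 ± 34.5 in untreated ESC-RPCs and 50.2 ± 4.95 in primary RPCs (3.06 ± 0.15 SE, adjusted p = 9.4e-08). Esrrg, a related nuclear receptor, differed by -1.88, Tfam, which packages mitochondrial DNA, by -0.54, and Tfb2m, a mitochondrial transcription factor, by -0.63. Genes of the hypoxia response were split, with 3 higher and 5 lower of 15 (53.3% called, against 53.0% of all genes). Ndrg1 was 269 ± 9.91 against 4630 ± 946 (-4.09 ± 0.14 SE, adjusted p = 7.6e-09) and Hif1a differed by -0.52, whereas Pdk1, which holds back pyruvate dehydrogenase, and Egln3, an oxygen sensor, were higher by 1.78 and 1.78. The counts on these lists describe them beside the background and carry no test of the lists themselves.

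**Figure D5:**
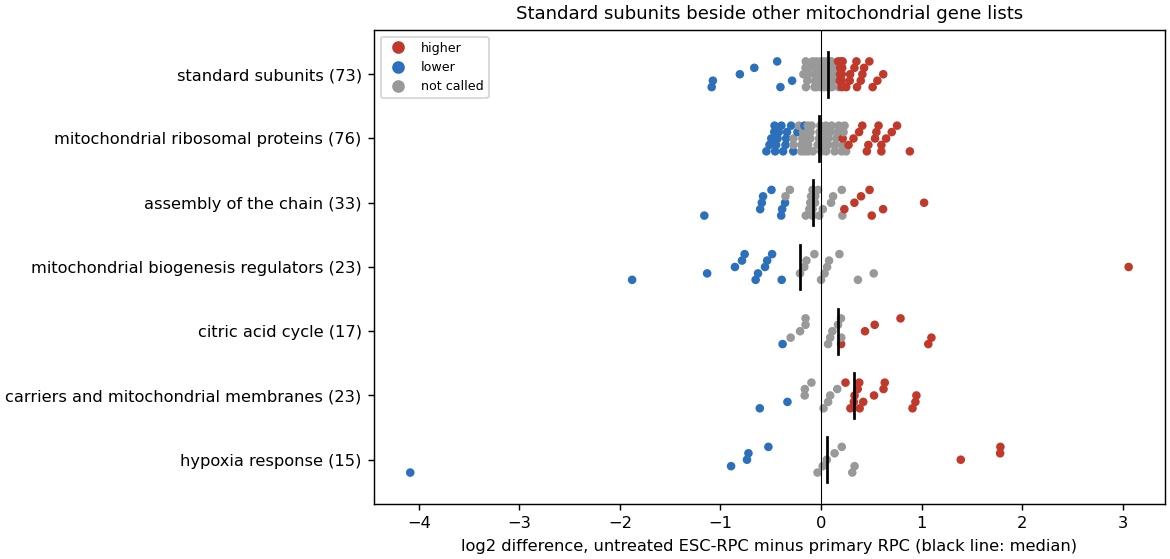
Each point is 1 tested gene: the x axis gives the log2 difference, untreated ESC-RPC minus primary RPC, colours mark the call, and black lines mark medians. The standard subunits cluster near 0 with a median of 0.072, the carriers and membranes lie to the right at 0.33, and the biogenesis regulators lie to the left at -0.21 apart from Esrrb.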

How the data were processed

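Total RNA from 9 samples (3 groups of 3) was hybridised to Affymetrix mouse arrays. The deposited values are MAS5 intensities on a linear scale (MAS5 per the submitters' processing notes, without a version); in the deposited files each array's trimmed mean, leaving out 2% of the probe sets at each end, is 500 and the lowest value is 1. MAS5 subtracts mismatch signal, so dim probe sets are noisy, and it scales each array by a single factor. Depth has no counterpart here: the number of arrays limits the precision. No genome build is given in the sources used here; gene names come from GEO's platform annotation, and promoters from RefSeq on GRCm38.p6.

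Probe sets naming several genes (932) or none (9160) were set aside. Probe sets above the 40th percentile of their own array on at least 3 arrays were kept, and the brightest represented its gene, which left 13320 genes. log2 intensities of all 9 arrays were fitted together with limma 3.58.1 in R 4.3.3 (lmFit, contrasts, eBayes with intensity trend, two-sided, Benjamini-Hochberg over all genes); a gene was called at an adjusted p below 0.05. SE values come from this fit. The fit was tested on simulated data with known changes. The members and lists were chosen with earlier results of these data known. Named genes were, for each complex, the 3 called members with the largest rise and the 3 with the largest fall whose groups did not overlap, the 6 members with the smallest p for DKK1, the isoforms, core subunits and assembly factors, and up to 4 genes a pathway list; other members named were picked after their values were seen.

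Same-numbered DKK1-treated and untreated arrays deviated together (correlations 0.12, 0.20 and 0.32; -0.23 to 0.068 for unlike numbers), whereas no correlation with a same-numbered primary array was above 0. The alternatives were quantile normalisation, arrays set to 1 median, no filter, averaging the probe sets of a gene, no intensity trend, log2(value + 16), the replicate block and each array left out in turn. They come to 16 settings for each comparison with primary RPCs.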

Additional observations from a re-analysis of the deposited data

How the results depend on the processing

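Of the 42 members called between untreated ESC-RPCs and primary RPCs, 23 were called in all 16 alternative settings, and of the 34 called between DKK1-treated ESC-RPCs and primary RPCs, 25 were. Leaving out 1 array at a time gave 18 to 27 members higher and 10 to 25 lower in untreated ESC-RPCs, and 13 to 25 lower in DKK1-treated ESC-RPCs; the high end of the lower counts came without primary replicate 2, and the 18 without untreated replicate 2. Without the intensity trend 18 members were higher in untreated ESC-RPCs. After quantile normalisation 22 were lower and the median was -0.029, and 15 members changed sign, most of them called in neither setting; those called in either setting were Atp5g3 (-0.034), Atp5pb (-0.16), Cox6b1 (-0.026), Cox7a2 (-0.23) and Uqcrb (-0.16). In DKK1-treated against primary cells 10 changed sign, among them Cox5b (-0.12) and Cox6b1 (-0.029) with a call in either setting. With the probe sets of a gene averaged, 10 changed sign, of which Atp5j2 (-0.43), Ndufc2 (-0.27) and Ndufs4 (-0.35) had a call in either setting, as did Atp5j2 (-0.52) in DKK1-treated cells. Without primary replicate 2, Ndufa9 and Ndufb2 reversed to -0.18 each, against a highest value of 0.12 and 0.18 with another array left out. The cause was not tested. Medians by complex moved by more than the spread between replicates after quantile normalisation in complexes III (0.01), IV (-0.01) and V (-0.03) for untreated cells, and in complexes III, IV and V for DKK1-treated cells, and with probe sets averaged in complex V for untreated cells (0.17 to 0.071) and complex II for DKK1-treated cells (-0.10 to -0.012). With the replicate block (pairing by number) in the fit of 6 arrays, 1 member was lower with DKK1, against 0 members and 0 genes called in the fit of 9 arrays; against primary cells the latter gave 27 higher and 15 lower in untreated cells and 17 and 15 in DKK1-treated cells. Dim probe sets (Ndufb1, Ndufb4, Cox7c, Cox4i2, Cox6a2, Cox7a1, Ndufa4l2) limit those genes.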
